A study of Homo sapiens with 4 samples.

Results

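The regions described here are 3892 peaks of MTF-1 that were present in cadmium-resistant MDA-MB-231 cells, absent from control cells, far from any transcript start and inside a gene. They were selected by 4 criteria applied to 2 peak lists on the hg38 genome. The peak had to be in the cadmium list and share no base with any control peak, its centre had to lie over 3 kb from every GENCODE v44 transcript start, the centre had to fall inside at least 1 annotated gene body, and the chromosome had to be 1 to 22 or X. Of 60130 cadmium peaks, 9074 on these chromosomes shared no base with a control peak, 6681 of those were distal and 3892 of the distal ones were inside genes. The other 2789 lay between genes. Presence in one list and absence from the other therefore chose these peaks and is not a result.

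MDA-MB-231 is a human breast cancer line of basal, mesenchymal-like character. Control cells were passaged in normal media with no treatment, and cadmium cells were passaged long term in 10 µM cadmium until resistant. Each condition had 2 CUT&RUN libraries, in which an antibody against MTF-1 directs a nuclease to cut around the bound protein. The labels call the control libraries biological replicates and do not say whether the cadmium libraries came from separately selected lines. The authors merged the 2 libraries of a condition before calling peaks, so each peak list gives positions and widths only. Depth and peak height are unknown, no spread between replicates can be given, and every test below compares peak lists rather than replicate cultures. Depth and the cells that outgrew during selection cannot be told apart from cadmium itself. Start-site peaks at VIM, CD44 and AXL were in both lists, and none was at PGR. ESR1 had a start-site peak in the control list only, and GATA3 in the cadmium list only. A start-site peak was in both lists at 73.1% of the 16386 protein-coding genes with distal body sequence. Peak lists hold no RNA, so these sites do not test the character of the line.

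MTF-1 is the zinc finger factor that senses metals. Zinc released by cadmium from metallothionein loads its fingers. With zinc bound, MTF-1 recognises metal response elements (MREs), whose core is TGCACNC or TGCGCNC, near metallothionein and zinc transporter genes. Earlier work cited by the study found binding to consensus MREs under excess zinc but not under cadmium. AP-1 is the dimer of FOS and JUN proteins, a factor of stress and growth signalling that binds TGACTCA, whose reverse complement on the other strand reads TGAGTCA, and occupies many enhancers of mesenchymal-like breast cancer cells. Forkhead factors bind a short AT-rich core. The search took GTAAACA as the core, and it also took the form GTAAATA. It took ATAAACA and, as the last of the forms, the string ATAAATA. Introns hold many enhancers, both of the host gene and of its neighbours.

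Sequences of members, from hg38 and on its plus strand, show the kinds of letters found under these peaks. The first are shown because each held 5 AP-1 sequences in the central 500 bp, with TGACTCA or TGAGTCA in capitals. They lie in intron 2 of LDLRAD4 (chr18:13288551-13288850), an inhibitor of TGF-beta signalling, and in intron 1 of the long non-coding RNA gene ENSG00000261273 (chr16:88247550-88247849).
LDLRAD4: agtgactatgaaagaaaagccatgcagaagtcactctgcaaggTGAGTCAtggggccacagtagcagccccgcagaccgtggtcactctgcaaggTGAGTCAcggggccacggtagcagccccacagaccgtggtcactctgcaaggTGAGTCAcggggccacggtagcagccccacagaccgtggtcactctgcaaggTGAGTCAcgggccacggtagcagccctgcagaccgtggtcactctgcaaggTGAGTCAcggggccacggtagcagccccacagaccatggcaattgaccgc
ENSG00000261273: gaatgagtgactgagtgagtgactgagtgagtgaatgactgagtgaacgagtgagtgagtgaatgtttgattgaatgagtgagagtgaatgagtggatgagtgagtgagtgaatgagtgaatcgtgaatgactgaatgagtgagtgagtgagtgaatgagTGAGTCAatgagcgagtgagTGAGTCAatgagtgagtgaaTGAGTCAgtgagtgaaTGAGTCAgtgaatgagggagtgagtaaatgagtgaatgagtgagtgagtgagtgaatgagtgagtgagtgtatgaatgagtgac
The AP-1 copies in LDLRAD4 recurred at a nearly fixed step, as copies in a tandem repeat do, since 3 steps were of 52 bases and 1 of 51. In ENSG00000261273 the closest copies were 20, 20 and 16 bases apart.

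The next 4 are shown because they carried TGCACACG, the string that JASPAR gives for MTF-1, near the centre. Capitals mark that string or its reverse complement CGTGTGCA, and in DMRT1 also the AP-1 sequence. The sites are in intron 11 of PTPRN2 (chr7:158060158-158060357), a phosphatase-like protein of secretory vesicles, intron 11 of ATP11A (chr13:112826030-112826229), a phospholipid flippase, intron 1 of ALX4 (chr11:44302171-44302370), a homeobox gene, and intron 4 of DMRT1 (chr9:962108-962307), a transcription factor of testis development.
PTPRN2: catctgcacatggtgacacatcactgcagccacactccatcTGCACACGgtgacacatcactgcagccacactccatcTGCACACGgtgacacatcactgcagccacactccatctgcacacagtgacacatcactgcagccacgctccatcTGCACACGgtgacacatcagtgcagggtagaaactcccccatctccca
ATP11A: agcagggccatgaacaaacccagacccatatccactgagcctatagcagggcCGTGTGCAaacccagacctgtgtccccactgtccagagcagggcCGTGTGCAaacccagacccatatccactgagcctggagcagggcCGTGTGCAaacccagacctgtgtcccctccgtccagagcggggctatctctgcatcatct
ALX4: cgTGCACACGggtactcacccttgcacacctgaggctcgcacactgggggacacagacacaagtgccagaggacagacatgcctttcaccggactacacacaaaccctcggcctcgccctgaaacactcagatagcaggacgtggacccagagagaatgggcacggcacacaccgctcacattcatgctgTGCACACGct
DMRT1: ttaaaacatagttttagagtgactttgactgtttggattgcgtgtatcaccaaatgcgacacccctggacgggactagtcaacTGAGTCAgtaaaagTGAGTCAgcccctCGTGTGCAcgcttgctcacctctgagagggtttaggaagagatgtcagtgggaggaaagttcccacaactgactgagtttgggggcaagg
The 3 copies in PTPRN2 were 37 and 74 bases apart and the 3 copies in ATP11A were 44 bases apart each time, so these too were repeated units. The DMRT1 site held 2 AP-1 sequences and 1 TGCACACG within its 200 printed bases.

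The last is from a list of pathway genes. The member in intron 1 of TWIST2 (chr2:238896087-238896186), a factor of epithelial-mesenchymal transition, is shown with its AP-1 sequence in capitals.
TWIST2: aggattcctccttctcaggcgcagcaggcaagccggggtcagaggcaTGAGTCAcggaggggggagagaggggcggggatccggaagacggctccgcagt

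Members were narrow. Their median width was 599 bp (quartiles 399 and 999), the same as in the 2789 gained peaks between genes, against 799 bp for the 17072 shared distal peaks inside genes and 799 bp for the 9311 distal control peaks inside genes that were lost in cadmium. Of the members, 349 (8.97%) were 1 bin of the peak caller wide, and 874 (22.5%) reached 1000 bp. Gained peaks were 18.6% of the 20964 distal cadmium peaks inside genes, 39.1% of those of 199 bp and 8.49% of those of 2199 bp or more. A narrow peak has fewer bases with which to share one, and the rule used that sharing, so this gradient is given as a description. The 5 widest members were in LINC02520 (8999 bp, chr6:37524001-37532999), CACNA2D2 (8599 bp), CFAP46 (8399 bp), ENSG00000273291 together with GASK1A (6799 bp) and DPP6 (6399 bp). None of these 5 had an AP-1 sequence in its central 500 bp.

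Most members were well away from control peaks. The gap to the closest control peak had a median of 10401 bp, 128 members (3.29%) had a gap under 1000 bp and 11 a gap of 1 bp. Among these were peaks in PXDN, APBA1 and RALGDS with ENSG00000285245, which lay just inside the limit. On the other side, 804 shared peaks overlapped by at most 1 bin, and the first of these by position, peaks of 199 bp in GNB1, ACOT7 and RERE, were covered whole by a control peak. At the distal limit, members in RNF217 and MMP2 had centres 3003 bp from a transcript start and one in IL17B 3008 bp, while gained peaks in ENSG00000286493, EVI5 and GPC5 were at 2998, 2994 and 2993 bp and were not members. Within 100 bp of the limit there were 49 members beyond it and 44 gained peaks inside genes short of it.

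AP-1 sequences were most frequent in narrow members and in members far from control peaks. Of the 3892 members, 1336 (34.3%, 95% Wilson interval 32.9 to 35.8) had TGACTCA or TGAGTCA within 500 bp around the centre, against 7.52% of 2709022 windows of 500 bp tiled over all distal sequence inside genes. The share was 37.8% in shared peaks, 25.7% in lost peaks and 34.7% in gained peaks between genes. The odds of an AP-1 sequence were higher in members than in lost peaks (odds ratio 1.51, 95% interval 1.40 to 1.64, adjusted p = 5.39e-22, Fisher's exact test, two-sided, with p adjusted by Benjamini-Hochberg over 39 tests). By the same exact test they were lower than in shared peaks (0.861, 0.800 to 0.926, adjusted p = 0.000186), and the difference from gained peaks between genes did not pass the test (0.982, 0.886 to 1.09, adjusted p = 0.796). These tests count peaks as independent, which neighbours in a gene are not. The ratio against shared peaks turned to 1.10 (1.02 to 1.19, exact test, adjusted p = 0.0250), past the threshold, when the 2 lists were merged and the conserved regions of the merged list were taken as the shared class. With only the widest peak of each host gene kept, it was 0.947 (exact test, adjusted p = 0.408). That choice favours wide peaks, in which AP-1 sequences were rarer. With a window of 200 bp the ratio was 1.01 (exact test, adjusted p = 0.910). Against lost peaks it was 0.881 (exact test, adjusted p = 0.589) for peaks of at least 1000 bp and 1.07 (adjusted p = 0.139) over whole peaks.

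**Figure D1:**
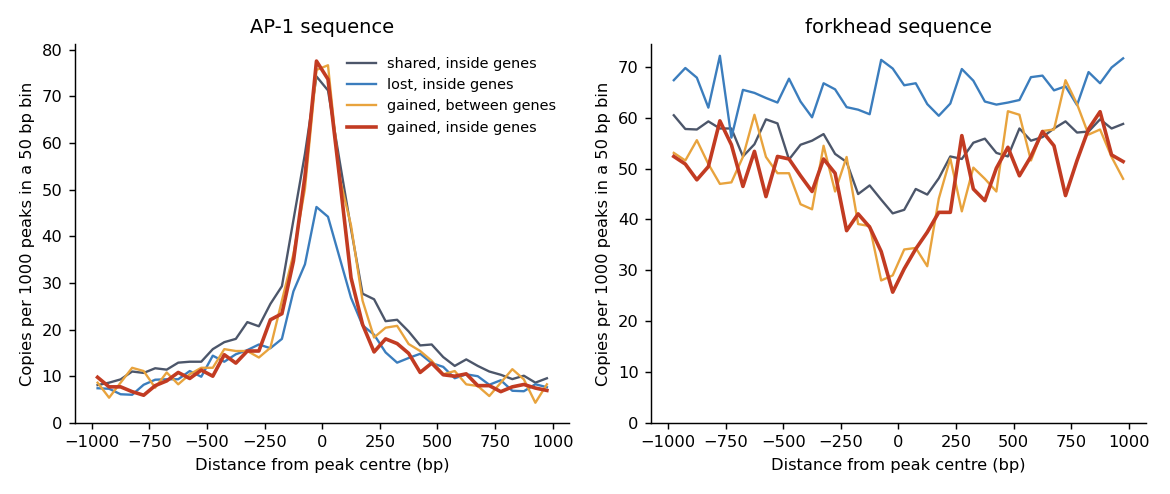
Copies of the AP-1 (left) and forkhead (right) sequences per 1000 peaks in bins of 50 bp, by distance from the peak centre in bp, for 4 classes of distal peaks. AP-1 rises at the centre of members to 7.55 times its flank density while forkhead dips to 0.593 times, and the curve of lost peaks lies lower for AP-1 and is flat for forkhead.

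AP-1 sequences piled up at the centres of members. In the central 200 bp there were 64.2 copies per 1000 members and 50 bp, which was 7.55 times the density in the outer flanks of the same peaks. Shared peaks had about the same central density, 64.9, over denser flanks than the 8.50 of members, so their ratio was 5.88. Gained peaks between genes were at 63.8 (ratio 7.11) and lost peaks at 40.0 (ratio 4.64). Most members with an AP-1 sequence held a single copy (1137 members), 182 held 2 and 17 held 3 or more. Including the base on each side, ATGACTCAT made up 7.74% of the 1563 copies in members, and 10.7% of those in shared and 13.8% of those in lost peaks.

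The share with AP-1 fell with peak width. It was 45.6% in members of 199 bp, 43.7% at 399 bp, 42.6% at 599 bp and 37.3% at 799 bp, then 20.4% at 999 bp and between 11.2% and 15.2% in wider ones. Shared peaks kept a higher share at every width, from 46.1% at 199 bp and 50.9% at 599 bp down to 19.5% at 2199 bp or more. Compared within widths, the odds ratio of members against shared peaks was 0.691 (Mantel-Haenszel chi-square test, 0.640 to 0.747, adjusted p = 1.56e-19) and against lost peaks 1.19 (1.09 to 1.29, adjusted p = 0.000283). The share also varied with the distance to the closest control peak. It was 20.5% at gaps of 201 to 1000 bp, 25.5% up to 3000 bp, 31.4% up to 10000 bp, 35.9% up to 30000 bp and 43.3% beyond, with a median width of 599 bp in each of these classes.

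**Figure D2:**
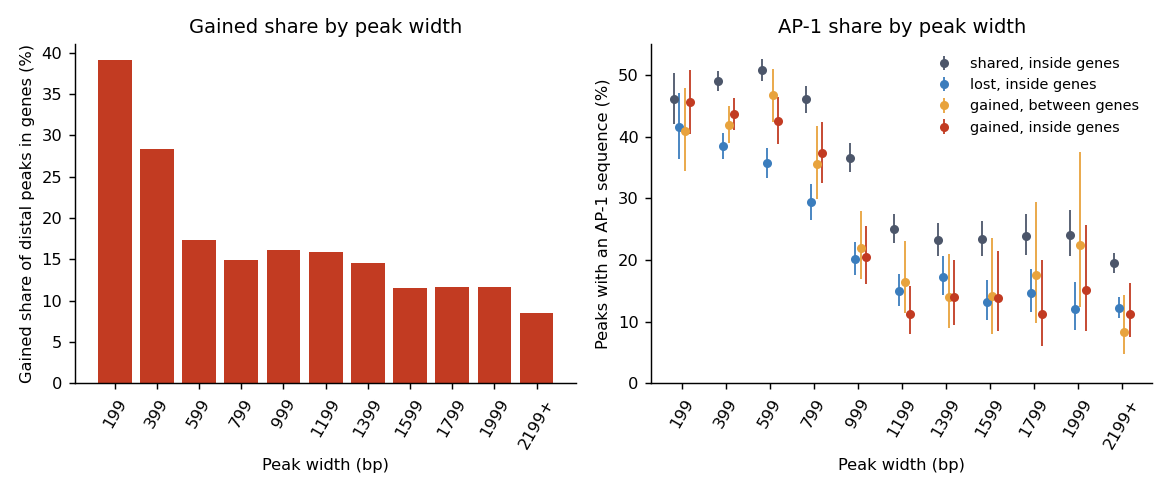
Left, the gained share (%) of distal cadmium peaks inside genes for each peak width in bp, with the last bar for 2199 bp or more. Right, the share of peaks (%) with an AP-1 sequence in the central 500 bp by width and class, with 95% Wilson intervals as bars; members drop from 37.3% at 799 bp to 20.4% at 999 bp.

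Forkhead sequences were scarce in members. They were in 1022 of 3892 members (26.3%), in 32.9% of shared peaks, in 44.0% of lost peaks, in 27.8% of gained peaks between genes and in 45.0% of all windows. The odds ratio was 0.453 against lost peaks (0.417 to 0.491, exact test, adjusted p = 1.81e-82) and 0.727 against shared peaks (0.673 to 0.787, adjusted p = 7.94e-15). At member centres the density was 0.593 times that in the flanks, at those of gained peaks between genes 0.575 times, of shared peaks 0.749 times and of lost peaks 1.04 times. Gained peaks were also richer in G and C, with a median of 47.4% in members and 47.8% in gained peaks between genes, against 45.8% in shared peaks, 43.0% in lost peaks and 39.6% in all windows, and an AT-rich string is rarer in such sequence. Within strata of width and GC content together the odds ratio was 0.585 against lost peaks (0.533 to 0.641) and 0.810 against shared peaks (0.745 to 0.882), both past the threshold. Among members with an AP-1 sequence, 29.0% also had a forkhead sequence, and among those without it 24.8%.

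The MRE core was in a similar share of members and of the other classes. It was in 28.9% of them, in 29.4% of shared peaks, 27.4% of lost peaks, 29.6% of gained peaks between genes and 27.2% of all windows. None of the 3 differences passed the exact test, with odds ratios of 0.972 (0.900 to 1.05, adjusted p = 0.633), 1.07 (0.987 to 1.17, adjusted p = 0.208) and 0.965 (0.868 to 1.07, adjusted p = 0.667). The comparison with lost peaks turned with the stratum, at 1.20 (Mantel-Haenszel chi-square test, adjusted p = 9.89e-05) within widths and 0.869 (adjusted p = 0.00842) within widths and GC content. The longer string TGCACACG was rare, in 44 members (1.13%), 0.884% of shared, 0.698% of lost and 0.538% of intergenic gained peaks, and in 0.749% of windows. Its odds ratio was 1.63 against lost peaks (exact test, adjusted p = 0.0366) and 2.11 against gained peaks between genes (adjusted p = 0.0295), where 10 of 13 other settings ended or turned the first of these calls and 6 of 13 the second. Of the 44 members with it, 20 also had an AP-1 sequence.

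Other strings separated members from lost peaks more than from other gained peaks. The antioxidant response element TGACNNNGC, the site of NRF2, was in 23.8% of members and 18.0% of lost peaks (odds ratio 1.42, exact test, adjusted p = 4.33e-13). Of its 1091 copies in members, 171 held an AP-1 sequence within the same letters, so the pair overlap. The SP/KLF string GGGCGGG (5.11% against 3.44%, exact test, adjusted p = 5.02e-05) and the ETS string CCGGAAG (2.72% against 1.58%, adjusted p = 0.000102) were also more frequent than in lost peaks. Members were richer in G and C than lost peaks (medians 47.4% and 43.0%). No values within strata of GC content are given for the antioxidant, SP/KLF and ETS strings. The TEAD string ACATTCC was in 9.43% of members against 11.5% of shared and 12.5% of lost peaks, and the RUNX string AACCACA in 12.2% against 15.8% and 15.3%, all 4 past the threshold. For TEAD, 3 of 14 other settings ended or turned the call against shared peaks and 1 of 13 that against lost peaks. For RUNX, 1 of 14 and 2 of 13 did so. Of the 39 tests, 16 passed, and TGCACACG gave the only one of these against gained peaks between genes.

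Members were spread over introns. Of 3892, 3307 (85.0%) touched no annotated exon, 363 (9.33%) touched a coding exon, 92 (2.36%) an untranslated exon and 130 (3.34%) an exon of another transcript. The exon share of 15.0% did not differ past the threshold from 16.0% in shared and 15.5% in lost peaks (exact test, adjusted p = 0.167 and 0.492). Within widths it was higher than in both, with odds ratios of 1.20 (Mantel-Haenszel chi-square test, adjusted p = 0.000904) and 1.32 (adjusted p = 4.00e-06). In the canonical transcript of the host, 24.5% of members were in intron 1 against 27.2% of shared peaks (odds ratio 0.871, 0.803 to 0.944, exact test, adjusted p = 0.00292) and 26.2% of lost peaks (0.914, adjusted p = 0.0841). Intron 4 or later held 34.5% of members, 29.7% of shared and 31.9% of lost peaks. Along the host, cut into 5 equal parts, 16.6% of members were in the part closest to its start, against 19.0% of shared and 19.5% of lost peaks. Each of the other parts held between 20.2% and 21.4% of members. The 3 kb limit removes peaks near starts from every one of these classes. The share inside genes, 58.3% of distal gained peaks (57.1 to 59.4), stood beside 56.5% of all distal sequence, 60.5% of shared and 62.5% of lost distal peaks.

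Members were in 3091 genes, of which 2175 were protein-coding and 858 long non-coding. That is 13.3% of the 16386 protein-coding genes with distal body sequence. Of the members, 3041 were in a protein-coding gene, 813 in a long non-coding gene with no protein-coding one and 38 in genes of other types only. Overlapping genes cannot be told apart as hosts, and 409 members were in 2 or more genes. In 1625 protein-coding hosts there was 1 member, in 550 there were 2 or more and in 51 there were 5 or more. Of the 2175 protein-coding hosts, 1395 also held a shared distal peak and 938 a lost one, and 629 had neither. Over all 16386 protein-coding genes with distal body sequence, 3857 (23.5%) held a lost distal peak. The share over all genes is not given for shared peaks, and none of these counts allows for gene length. Longer genes offer more distal sequence, and the share with a member went from 4.03% under 30 kb to 47.1% at 300 kb or more.

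CAMTA1, a calmodulin-binding transcription activator, had the most members of any gene, 25 over its 984 kb, with 11 shared and 1 lost distal peak. Of the 25, 9 held an AP-1 sequence, all lay in introns 3 to 6, and their widths ran from 199 to 1999 bp. PTPRN2 had 16, beside 20 shared and 23 lost peaks. ROBO2, a receptor for the axon guidance factor SLIT, had 14 over 1743 kb, and 8 in a row had no other distal peak between them. RBFOX3, a neuronal splicing factor, had 12 with 3 shared and 1 lost peak. Both ROBO2 and RBFOX3 had a start-site peak in the cadmium list only. IQSEC1, an exchange factor for the GTPase ARF6, had 10 beside 14 shared and 2 lost peaks. SORCS2, a sortilin-family receptor, had 9 beside 11 shared and 2 lost peaks, and CDH23, a cadherin of hair cells, had 8 beside 5 shared and 2 lost peaks.

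Some hosts with many members had few or no distal peaks of other kinds. FRMPD4, a scaffold protein of synapses on chromosome X, had 10 members from 76.9 to 880 kb from its start, none shared and none lost, and no start-site peak in either list. LDLRAD4 had 9 members, 5 of them with AP-1 sequences (9 copies in all), none shared and none lost, with a start-site peak in both lists. CACNA2D2, an auxiliary subunit of voltage-gated calcium channels, had 9 members in 142 kb, or 72.6 per Mb of its distal sequence, with 1 shared and 2 lost peaks. Besides FRMPD4 and LDLRAD4, the genes with 5 or more members and no shared or lost distal peak were NCKAP5 (7 members), SYNDIG1, TRABD2B and KIF6 (6 each) and SEMA5A (5), named after their values were seen. All of these are among the 51 protein-coding hosts with 5 or more members. Of all 2175 protein-coding hosts, 629 had no shared and no lost distal peak, a larger share than among the 51.

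**Figure D3:**
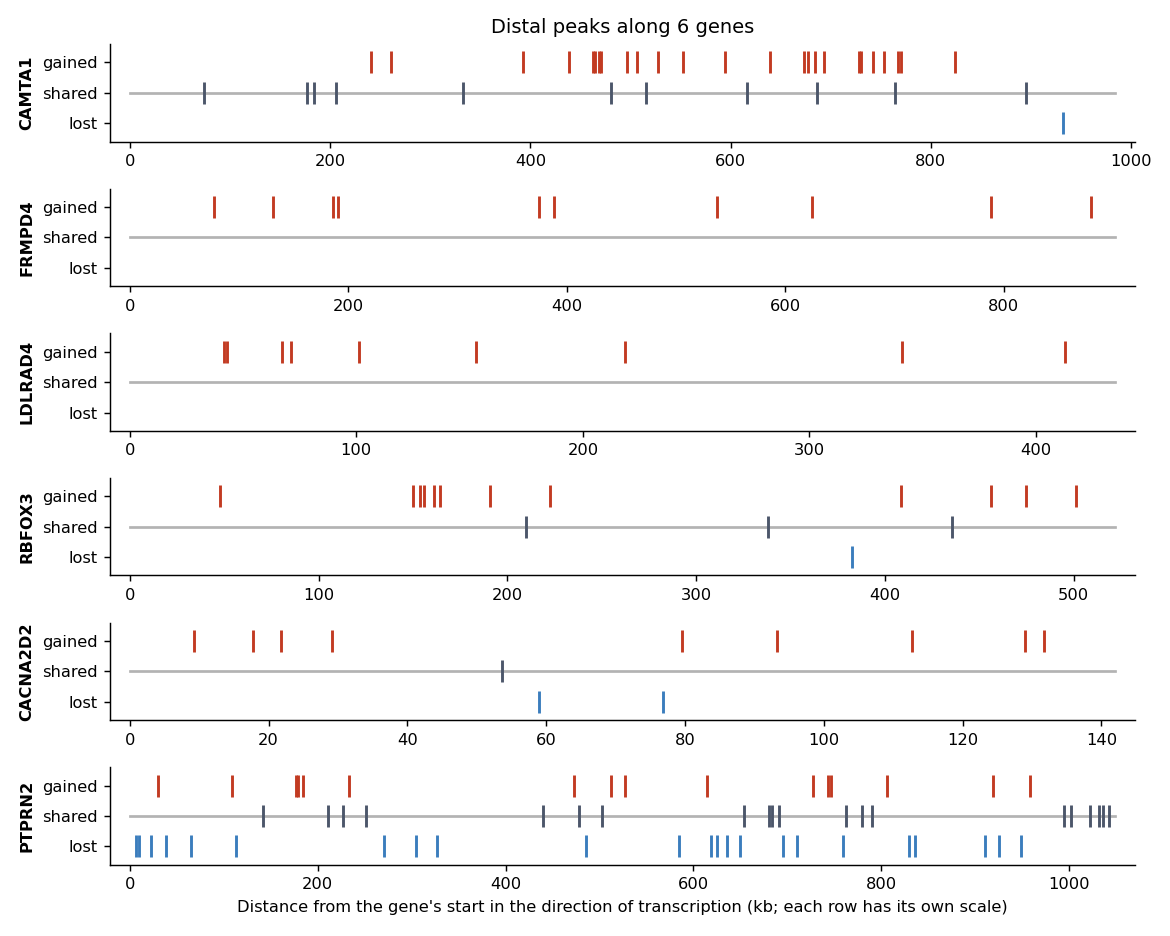
Distal peaks along CAMTA1, FRMPD4, LDLRAD4, RBFOX3, CACNA2D2 and PTPRN2, each tick a peak centre at its distance in kb from the gene's start in the direction of transcription, on the upper line when gained, on the gene when shared and on the lower line when lost. FRMPD4 and LDLRAD4 show gained peaks alone (10 and 9), while PTPRN2 mixes 16 gained with 20 shared and 23 lost peaks.

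The start sites of host genes were examined next, since the rule did not use them. Of 1237 protein-coding genes with a member and no lost distal peak, 871 (70.4%) had a peak within 1 kb of their start sites in both lists. Of 2919 with a lost distal peak and no member, 2422 (83.0%) had one (odds ratio 0.488, 0.418 to 0.571, p = 4.71e-19, Fisher's exact test, two-sided). The share was 83.2% in the 938 genes with both kinds, 70.0% in the 11292 with neither and 73.1% over all 16386. With lengths pooled, genes with a member and no lost peak were near the share over all genes. Genes with a lost peak stood above it. Start sites without a peak in either list were 22.5% of genes with a member and no lost peak, 12.8% of those with a lost peak and no member, 11.1% of those with both and 22.3% of all, and start-site peaks in the cadmium list only were 4.28%, 0.411%, 1.92% and 1.48%. The gap was widest in genes of 300 kb or more, at 41.0% of 105 against 74.7% of 300, and was 71.0% against 73.6% in genes under 30 kb. Over strata of gene length the odds ratio was 0.500. Genes with neither kind of distal peak were at 42.2% in the longest class and 64.4% in the shortest, and all genes at 66.2% and 65.2%. From 30 kb up, genes with a member and no lost peak were below all genes of their length. They were at 75.3% against 80.1% for 30 to 100 kb and at 71.3% against 79.8% for 100 to 300 kb.

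**Figure D4:**
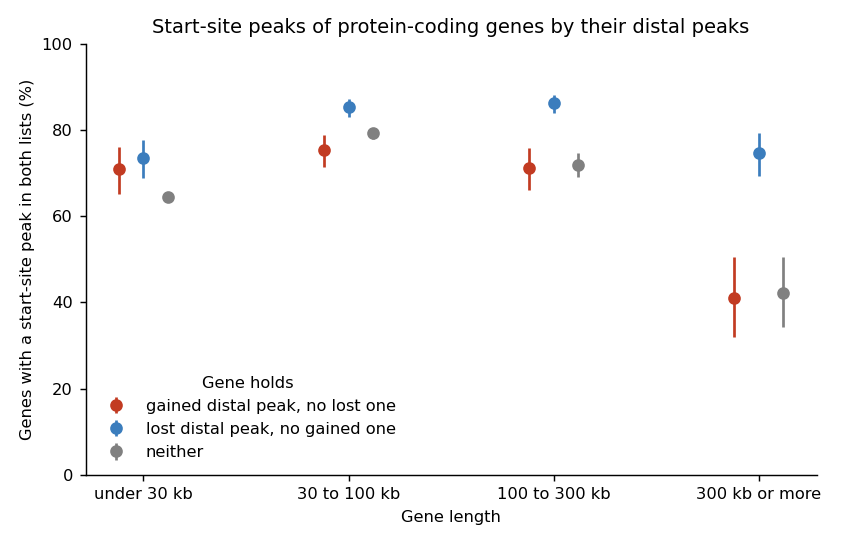
Share (%) of protein-coding genes with a start-site peak in both lists, by gene length, for genes that hold a gained distal peak and no lost one, a lost one and no gained one, or neither; bars are 95% Wilson intervals. At 300 kb or more the gained-only genes are at 41.0% and the lost-only genes at 74.7%.

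Genes of pathway lists were then counted. The lists were chosen with earlier results of these data known, and their genes differ in length, so each share is given beside the 13.3% and the median length of 38.3 kb over all protein-coding genes. The list of voltage-gated calcium channels and calcium pumps covers proteins that move calcium across membranes, some of which pass cadmium. It also includes ORAI3 and ITPR3, which are calcium channels of other kinds. Of its 40 genes, 18 held members (45.0%, 42 members, median length 131 kb). After CACNA2D2 these were ATP2B2, a plasma membrane calcium pump, with 7 members of which 4 had AP-1 sequences, the channel CACNA1B with 6, of which none had, and the channel CACNA1H with 3. Per Mb of distal sequence the list had 5.54 members, against 3.10 for all protein-coding genes. Integrins and focal adhesion genes were at 5.61 per Mb and Hippo pathway and TEAD genes at 5.08. AP-1 and related bZIP factor genes (5 members) and epithelial-mesenchymal transition genes (11 members) were at 5.04. The listed receptor tyrosine kinases were at 3.31 and TGF-beta and activin genes at 2.12. The metal handling, NRF2 and glutathione, kinase cascade and forkhead factor lists were below 2.12.

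Integrins and focal adhesion genes were hosts in 15 of 41 (36.6%, median length 101 kb), with 3 members each in BCAR3, TNS1 and ITGA9. Of these, BCAR3, an adaptor of focal adhesion signalling, also had 24 shared and 3 lost distal peaks, and TNS1, which links integrins to actin, had neither. Hippo pathway and TEAD genes were hosts in 11 of 32 (34.4%, median length 114 kb), led by the protocadherin DCHS1 (3 members), the kinase STK4 and the TEAD cofactors VGLL4 and VGLL3 (2 each). Listed receptor tyrosine kinases were hosts in 12 of 44 (27.3%, median length 91.4 kb). Within the list ROR2 led with 6, followed by NTRK3 with 3 and NTRK2 with 2. The list left out ALK, a receptor tyrosine kinase with 8 members over 729 kb, so these values do not cover the whole family.

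The genes for AP-1 and related bZIP factors were hosts in 5 of 17 (29.4%, median length 15.7 kb), each with 1 member. These were FOSL2, ATF3, BATF3, MAFF and BACH1, and none of the 5 members had an AP-1 sequence in its central 500 bp. The member counted for MAFF also lay in PLA2G6. Epithelial-mesenchymal transition genes were hosts in 7 of 31 (22.6%, 11 members, median length 76.7 kb). COL5A1, a fibrillar collagen, had 3, TNC, a matrix glycoprotein whose members also lay in DELEC1, had 2, CDH2 had 2 and TWIST2 had 1, and TWIST2 alone of these had an AP-1 sequence.

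In the other lists given here the share of hosts ran from 6.67% to 14.3%, beside 13.3% over all protein-coding genes. Each of these shares rests on at most 5 host genes. Genes of zinc, cadmium, copper and iron handling were hosts in 2 of 29 (6.90%, median length 58.5 kb), the zinc importers SLC39A11 with 2 members and SLC39A10 with 1. None of these 3 had an AP-1 sequence, an MRE core or TGCACACG in its central 500 bp. NRF2 and glutathione genes were hosts in 2 of 30 (6.67%, median length 31.5 kb), NFE2L2 itself and the efflux pump ABCC1. The ABCC1 member was 199 bp wide. The 500 bp around its centre, a window wider than the peak, held 1 AP-1 sequence and 10 forkhead sequences. Kinases of the JNK, p38 and ERK cascade were hosts in 3 of 31 (9.68%, median length 80.6 kb), MAP2K3, MAPK14 and MAPK13, of which MAP2K3 and MAPK14 had an AP-1 sequence. Genes of TGF-beta and activin signalling were hosts in 5 of 35 (14.3%, median length 82.8 kb), led by BMP7 with 2 members and followed by SMURF2, ACVR1 and SMAD3. Forkhead factor genes were hosts in 3 of 25 (12.0%, median length 31.3 kb), FOXN3 with 2 members and FOXO1 and FOXK1 with 1.

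The study's list of genes that changed in cadmium-resistant cells, made from its RNA of the same cell system, matched 173 genes with distal body sequence. Of these, 42 (24.3%) held 61 members. The 42 were 38 protein-coding and 4 long non-coding genes, and the 38 were 25.5% of the 149 protein-coding genes matched, beside 13.3% of all protein-coding genes. The 173 had a median length of 49.2 kb against 38.3 kb for all protein-coding genes. In 12 of them there were 2 or more. MYO7B, an unconventional myosin of microvilli, had 4 members in 102 kb and no start-site peak in either list. SPOCK1, a matrix proteoglycan, had 4 and a start-site peak in the cadmium list only. LAMB3, a laminin chain, had 3 in 37.6 kb with no shared and no lost distal peak, 2 of them with AP-1 sequences. CAMSAP3, a microtubule minus-end protein, had 3 in 22.4 kb, and NTM, a neural adhesion molecule, had 3 beside 15 lost peaks. The remaining 7 with 2 members each were RIMS3, DGKG, SERINC2, ATP12A, CA12, PLCB4 and ENSG00000259560.

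Members were unevenly spread over chromosomes. There were 2.87 per Mb of distal sequence inside genes, with 6.16 per Mb on chromosome 16, 5.93 on chromosome 19 and 5.69 on chromosome 22, and 1.41 on chromosome 4, 1.62 on chromosome 14 and 1.69 on chromosome 12. As a share of distal cadmium peaks inside genes, gained peaks ran from 12.1% on chromosome 12 to 30.9% on chromosome 16. On chromosome 19 they were 17.2%, below the 18.6% over all chromosomes. Members outnumbered lost peaks on chromosomes 16 (219 against 146) and 22 (90 against 88), whereas over all chromosomes there were 2.39 lost peaks to 1 member. Within 10 Mb of a chromosome end lay 23.5% of members, 24.7% of gained peaks between genes, 19.5% of shared and 15.9% of lost peaks.

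**Figure D5:**
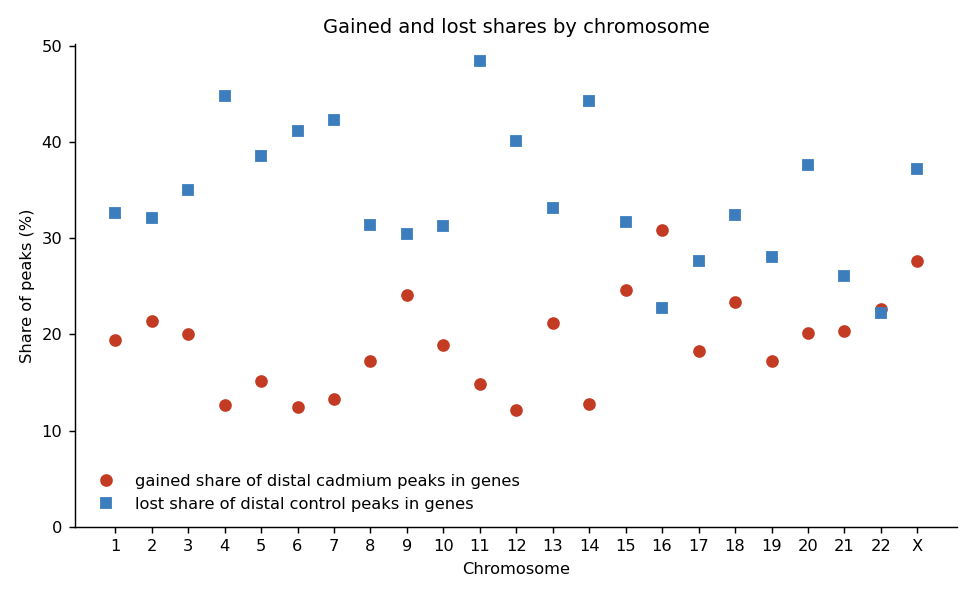
For each chromosome, the gained share (%) of distal cadmium peaks inside genes (circles) and the lost share (%) of distal control peaks inside genes (squares). Chromosome 16 has the highest gained share, 30.9%, above its lost share of 22.8%.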

How the data were processed

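MTF-1 CUT&RUN was performed by the authors on 2 control and 2 cadmium (10 µM) libraries of MDA-MB-231. According to their methods, reads were trimmed, aligned to hg38 with Bowtie2, merged by condition and used to call peaks with Epic2 at default parameters. The submitters' processing notes list SAMtools 1.8 and SICER 0.0.50. The deposited lists, per the file contents, give peak starts and ends in base pairs with a constant last column, and no count, score or signal. All widths fit bins of 200 bp, so a width is known only to 1 bin.

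Peaks were compared by shared bases and assigned to GENCODE v44 genes by their centres. Shared peaks were taken unmerged from the cadmium list. The 13 motifs were counted on both strands in 500 bp around the centre. Shares were set against each other with Fisher's exact test (two-sided, Wald intervals), with p adjusted over 39 motif tests and over 4 position tests, with 0.05 as the threshold, and by Mantel-Haenszel tests within strata (scipy 1.17.1). The steps were tested on simulated data. Intervals cover counting error only. The members, gene lists and tests were chosen with earlier results of these data known. Named genes followed fixed ranks: most members, listed genes with most members, genes of the study's expression list with 2 or more members, widest peaks, most AP-1 sequences, TGCACACG near the centre, and peaks next to each limit. The reads, signal tracks and other assays were not analysed here. A gene list and some sequences are not reported here.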

Additional observations from a re-analysis of the deposited data

How the results depend on the processing

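The lists carry merged libraries, so leaving out a replicate was not possible, and depth, which could move narrow peaks across the caller's threshold, is unknown. No paired analysis was possible because the replicates of each condition were merged before peaks were called. The forkhead differences from shared and lost peaks and the start-site difference kept direction and call under every alternative run (odds ratios 0.472 to 0.819, 0.279 to 0.623 and 0.469 to 0.637), as did the lower first intron share against shared peaks.

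The cause of the changes below was not tested. A distal limit of 10 kb left 2110 members in 1655 host genes, peaks of at least 400 bp left 2163 in 1807, and peaks of at least 1000 bp left 874 in 779. The share inside genes was 61.2% with a 1 kb limit, 53.0% with 10 kb, 43.4% with protein-coding annotation and 59.7% at 1000 bp or more, and 7 motif tests passed at that width.

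The following are odds ratios of members against the class named. The setting of 1 peak per gene kept the widest peak of each host gene or gap between genes. Wide peaks inside genes had a lower AP-1 share and touched exons more often than narrow ones. For AP-1 against shared peaks, 1 peak per gene gave 0.947, a 200 bp window 1.01 and merged conserved peaks, where the call turned and passed the threshold, 1.10; against lost peaks, peaks of at least 1000 bp gave 0.881 and the whole peak 1.07. Against gained peaks between genes, none past the threshold, AP-1 was at 1.08 with a 10 kb limit, 1.05 with under 50% covered as unique and 1.05 in 200 bp; forkhead was at 1.02 with a 10 kb limit and, past the threshold, 0.835 with 1 peak per gene or gap.

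For TGCACACG against shared peaks the whole peak gave 0.763. Against lost peaks it lost its call at 1.48 (1 kb), 1.70 (10 kb), 1.64 (protein-coding), 1.35 (under 50% covered), 1.68 (at least 400 bp), 1.70 (1 peak per gene), 1.88 (200 bp), 1.13 (GC strata) and 1.35 (width and GC strata), and turned at 0.830 (whole peak). Against gained peaks between genes it lost its call at 1.95 (10 kb), 1.61 (under 50% covered), 2.44 (at least 400 bp), 3.25 (at least 1000 bp), 2.26 (200 bp) and 1.29 (whole peak).

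For the MRE core against shared peaks, values turned to 1.02 (under 50% covered), 1.04 (at least 400 bp), 1.01 (at least 1000 bp), 1.05 (width strata) and 1.00 (200 bp), and were called lower at 0.637 (whole peak) and 0.892 (GC strata). Against lost peaks it was called higher at 1.10 (1 kb) and 1.20 (width strata), and called lower at 0.697 (whole peak), 0.815 (GC strata) and 0.869 (width and GC strata). Against gained peaks between genes it turned to 1.02 (protein-coding), 1.01 (1 peak per gene) and 1.10 (200 bp).

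For exons against shared peaks, the share was called lower at 0.791 (1 kb), 0.669 (1 peak per gene) and 0.716 (merged conserved peaks), turned at 1.10 (under 50% covered), 1.04 (at least 400 bp) and 1.10 (at least 1000 bp), and was called higher at 1.20 (width strata). Against lost peaks it was called lower at 0.914 (1 kb), 0.817 (10 kb) and 0.754 (1 peak per gene), turned at 1.00 (protein-coding), 1.06 (at least 400 bp) and 1.13 (at least 1000 bp), and was called higher at 1.32 (width strata). The first intron share against lost peaks was called lower at 0.918 (1 kb), 0.817 (protein-coding), 0.876 (at least 400 bp) and 0.789 (at least 1000 bp).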
